A study of Mus musculus with 51 samples.

Results

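Basement membranes are sheets of extracellular matrix on which epithelia rest. Type IV collagen and laminin each form a network in the sheet, and nidogen links the networks. Laminin chains are needed for the first basement membrane of the mouse embryo, which forms between the primitive endoderm and the epiblast around implantation. Parietal endoderm, a derivative of primitive endoderm, lays down the thick Reichert's membrane and is known for very high output of these proteins. The 8 genes followed here were Col4a1, Col4a2, Lama1, Lamb1, Lamc1, Sparc, Nid1 and Cthrc1. They are 8 of 18193 genes with a probe set of their own, and 17 of the 45101 probe sets carried exactly one of these symbols. The genes were chosen by symbol with results of these arrays known, among them the 8-cell differences of Col4a1 and Cthrc1 between clones and embryos from fertilised eggs. Those 2 differences are therefore a description, with no p-value, as is every step of Col4a1 or Cthrc1 into or out of the 8-cell stage. One probe set per gene, the main one, was selected on its SD across the 51 arrays, and the others are given beside it. Cthrc1 is not a structural component of the sheet: it encodes a secreted glycoprotein that bears a collagen triple helix repeat.

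Each array held RNA of 1 oocyte or embryo of the mouse. At each of 6 stages there were 5 clones and 3 embryos from in vitro fertilisation (IVF), next to 3 metaphase II (MII) oocytes. The clones carried the nucleus of a B6CBF1 Sertoli cell, the support cell of the testis, in a B6D2F1 oocyte, and the IVF embryos and the oocytes were B6D2F1. Embryos were taken 16 (1-cell), 32 (2-cell), 48 (4-cell), 62 (8-cell), 72 (morula) and 84 hours (blastocyst) after activation or sperm addition, and both kinds of embryo grew in KSOM medium. Each array averages a whole embryo, so fewer cells of a type and less RNA per cell cannot be told apart. The labels do not say which embryos came from the same oocyte donors or the same culture, so p-values measure the spread between these single embryos.

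Values are on a log2 scale whose zero is set probe set by probe set. They give differences between embryos for 1 gene and no level that could be set against another gene. A difference is printed with its standard error after the ± sign. It passed where limma's p-value, with Benjamini-Hochberg adjustment across 18193 genes, was under 0.05.

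The mean of 11 oocyte markers lay between 5.25 and 5.42 in the MII oocytes, and that of 11 blastocyst markers between 4.20 and 4.40 in cloned and between 4.31 and 4.49 in IVF blastocysts. One array stood apart. The 8-cell clone of replicate 4 (clone 4) had -5.25 for the Y-linked gene Eif2s3y, against -2.70 to 1.23 in the other 8-cell clones and -5.42 to -5.37 in the oocytes, although the donor nuclei were male. The 8-cell IVF embryos had -5.41, -5.50 and 2.20 for this gene. Embryo sex entered no comparison, and its part in the differences between clones and IVF embryos was not tested. Differences between clones and IVF embryos at the 8-cell stage, and the clone steps that passed there, are given with and without clone 4 because of its Eif2s3y value. The bacterial hybridisation controls also differed. They averaged -0.03 to 0.96 in 8-cell clones, against -0.44 to -0.24 in 8-cell IVF embryos (two-sided exact permutation test, p = 0.0357, the smallest that 5 against 3 allows, and 0.0857 adjusted over 12 such tests). They differed without overlap at the 1-cell, 2-cell and 4-cell stages too.

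The genes for the type IV collagen chains α1 and α2, Col4a1 and Col4a2, lie head to head on chromosome 8 (Col4a1 at chr8:11198423-11312889 on the minus strand and Col4a2 at chr8:11312805-11449287 on the plus strand, GRCm38.p6). The pair is known for a shared bidirectional promoter, and the 2 chains assemble into 1 trimer. RefSeq places the start sites used for the promoter windows at 11312826 for Col4a1 and 11312805 for Col4a2, so the 22 bases between them, chr8:11312805-11312826, belong to both transcripts. They are shown on the plus strand because this pair of genes moved together, with the SP1 box GGGCGG in capitals.
Col4a1 and Col4a2, 22 bases between the start sites: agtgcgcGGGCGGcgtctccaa

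In clones, Col4a1 and Col4a2 came up between the 4-cell and the 8-cell stage, and in IVF embryos between the 8-cell stage and the morula. At the 8-cell stage Col4a1 had 1.89, 1.45, 4.19, 0.50 and 1.68 in the clones, against -1.75, -5.17 and -2.38 in the IVF embryos. Every clone lay above every IVF embryo, and the clone of replicate 4 was the lowest of the clones. The difference was 5.04 ± 1.06, and 5.40 without that clone. Col4a2 had 1.93, 1.35, 4.50, -0.34 and 1.11 in the 8-cell clones, against -2.22, -2.11 and -2.29 in the IVF embryos. Again the groups did not overlap and the clone of replicate 4 was lowest, but the difference of 3.92 ± 1.00 missed the threshold (adjusted p = 0.0668), as did 4.43 without that clone (0.0511). The IVF values of Col4a2 lay close to the lowest values of this gene, and the IVF value of -5.17 was the lowest of Col4a1 over all arrays. Such values are not shown to be above background, so no fold is given for either gene.

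The step itself was larger in clones for Col4a2. From the 4-cell to the 8-cell stage the step of Col4a1 was 5.50 ± 0.67 in clones and 0.84 ± 0.86 in IVF embryos. Col4a2 rose by 3.97 ± 0.53 in clones (adjusted p = 2.83e-05), and its IVF step was 0.07 ± 0.58 (adjusted p = 0.995). The clone step exceeded the IVF step by 4.66 ± 1.10 for Col4a1 and by 3.90 ± 0.82 for Col4a2, where the adjusted p of the difference was 0.00778. At the 4-cell stage Col4a2 averaged -2.26 in clones and -2.28 in IVF embryos. Its difference of steps is thus no result apart from the 8-cell difference, which missed the threshold. The fit of steps took 1 variance over all 13 groups, although the SD of Col4a2 ran from 0.01 in 4-cell clones to 1.77 in 8-cell clones. Without the clone of replicate 4, Col4a2 rose by 4.48 in clones (adjusted p = 2.07e-06) and the steps differed by 4.41 (0.000848). The steps of Col4a1 are again a description, since they rest on the same 8-cell values. With the hybridisation controls as a covariate the 8-cell difference of Col4a1 was 6.23. The 11 oocyte markers averaged -1.04 to -0.59 in 8-cell clones, against 0.19 to 0.50 in IVF embryos. Of these markers 3 were lower in clones, at a stage where 6.62% of all genes passed. They were Zp3, Bmp15 and Gdf9, the last not without the clone of replicate 4 (adjusted p = 0.0717). The part of the controls and of the markers in the collagen result was not tested.

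IVF embryos followed at the morula. Col4a2 rose there by 3.22 ± 0.58 over the IVF 8-cell stage (adjusted p = 0.000999), and the same step of Col4a1 was 3.81 ± 0.86. At the morula Col4a1 had 3.07, 4.17, 4.07, 2.88 and 2.87 in clones, against 1.78, 0.24 and 0.11 in IVF embryos. Col4a2 had 3.79, 4.89, 5.34, 3.84 and 3.72 in clones, against 1.58, 1.86 and -0.40 in IVF embryos. Clones thus lay above IVF embryos in both genes without overlap, yet the differences of 2.70 ± 0.52 and 3.30 ± 0.65 did not pass (adjusted p = 0.113 and 0.117). By the blastocyst the 2 kinds of embryo overlapped. Col4a1 differed there by 0.01 ± 0.36 (95% interval -0.84 to 0.86) and Col4a2 by 0.48 ± 0.34 (95% interval -0.33 to 1.28).

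The collagen genes also moved at the first cleavage. Col4a1 averaged -1.04 ± 0.71 in 1-cell clones and -1.44 ± 1.15 in 1-cell IVF embryos (SD, n = 5 and 3). It fell by 2.82 ± 0.67 from the 1-cell to the 2-cell stage in clones (adjusted p = 0.000982), and the IVF step of -1.86 ± 0.86 did not pass (adjusted p = 0.118). Col4a2 fell by 2.42 ± 0.53 at the same step in clones (adjusted p = 0.000397), against an IVF step of -0.90 ± 0.58 (adjusted p = 0.289). At the 4-cell stage the 8 values of Col4a2 ran only from -2.30 to -2.24.

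A second probe set of Col4a1 was flat up to the 4-cell stage in clones and up to the 8-cell stage in IVF embryos, with every value between -0.22 and 0.01. It then read 1.91, 3.14, 5.45, 1.71 and 3.21 in 8-cell clones, against -0.03, -0.03 and -0.02 in IVF embryos. As with the main probe set, all clones lay above all IVF embryos. The fall of the main probe set from the 1-cell to the 2-cell clone was not seen with it (-0.01). The Pearson correlation of Col4a1 with Col4a2 was 0.889 across all 51 arrays, which share their stages, and 0.373 once group means were removed.

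**Figure D1:**
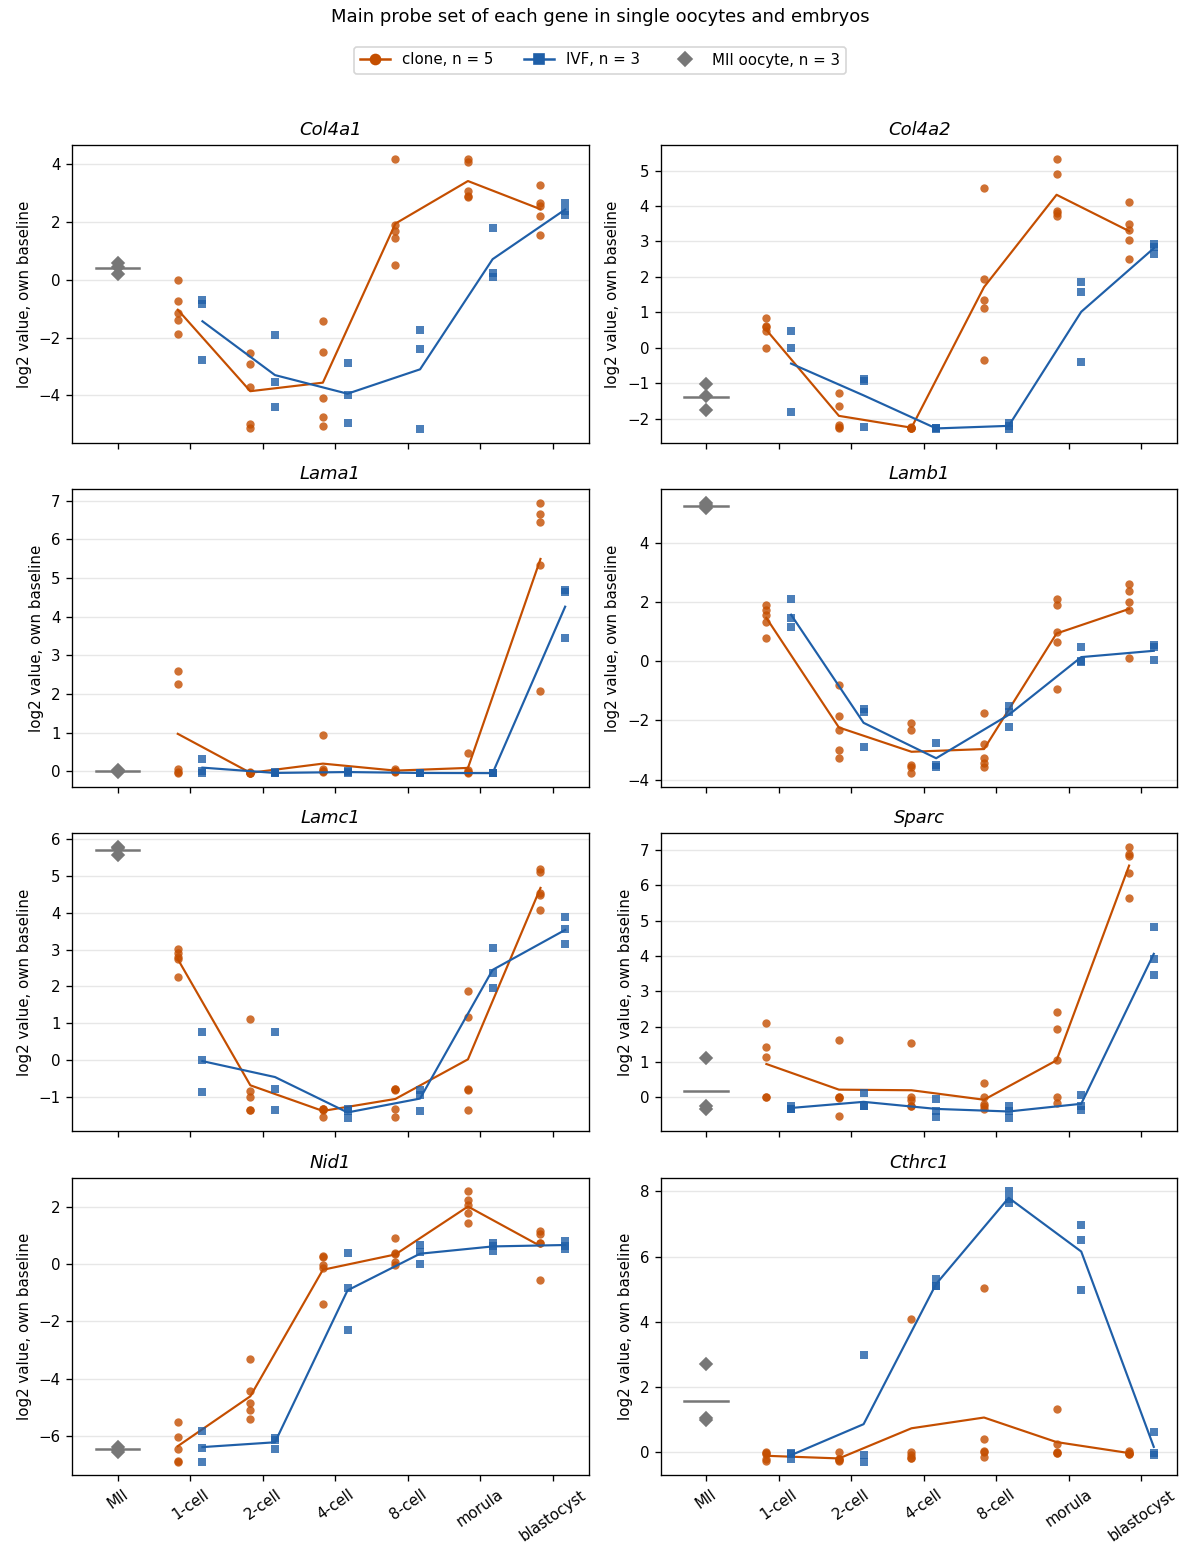
Log2 values of the main probe set of each gene (vertical axis, relative to that probe set's baseline) in single MII oocytes (diamonds), clones (circles, left) and IVF embryos (squares, right) by stage. Lines join group means. Col4a1 and Col4a2 stand higher in clones at the 8-cell stage, where the Col4a1 difference was 5.04, and at the morula, and Cthrc1 stands higher in IVF embryos from the 4-cell stage to the morula.

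Laminin is a trimer of an α, a β and a γ chain, and Lama1, Lamb1 and Lamc1 encode the chains of laminin-111, the main laminin of the early embryo. The β1 and γ1 chains are known to be made before the α1 chain, which is the one that permits secretion of the trimer. In these embryos the main probe sets of Lamb1 and Lamc1 were highest in the oocyte and fell by the 2-cell or 4-cell stage. They rose again at the morula (Lamb1) or the blastocyst (Lamc1) in clones, and at the 8-cell stage (Lamb1) or the morula (Lamc1) in IVF embryos. The second probe set of Lamc1 was instead highest in blastocysts, averaging 5.24 in cloned and 4.61 in IVF blastocysts, against 2.23 in MII oocytes. Lama1 rose at the blastocyst.

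Lamb1 (chr12:31265146-31329644, the β1 chain) had 5.17, 5.28 and 5.37 in MII oocytes, the highest of the 13 groups. In clones it fell by 3.71 ± 0.55 from the 1-cell to the 2-cell stage (adjusted p = 2.82e-06) and rose by 3.91 ± 0.55 from the 8-cell stage to the morula (adjusted p = 1.32e-05, and 9.7e-06 without the 8-cell clone of replicate 4). In IVF embryos it fell by 3.69 ± 0.34 between the oocyte and the 1-cell stage (adjusted p = 4.36e-07) and by 3.66 ± 0.34 at the next step (adjusted p = 2.91e-07). It changed by a further -1.20 ± 0.34 at the 4-cell stage (adjusted p = 0.0169), a call that did not pass without IVF 2-cell replicate 1 or 2 or IVF 4-cell replicate 1 or 2 (0.059 to 0.0812). It then rose by 1.47 ± 0.34 at the 8-cell stage (adjusted p = 0.0402) and by 1.96 ± 0.34 at the morula (adjusted p = 0.000738). The 8-cell rise did not pass after quantile normalization (0.0869), with all probe sets fitted (0.053), with a replicate block (0.0678), in 1 fit of all 51 arrays (0.288) or without any 1 of 12 arrays, among them all 3 oocytes, IVF 4-cell replicates 1 and 2 and IVF 8-cell replicates 1 and 3 (0.0503 to 0.128).

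No difference between clones and IVF embryos passed at any stage, nor did any difference between the steps of Lamb1. At the 8-cell stage Lamb1 had -3.45, -3.28, -2.80, -1.75 and -3.56 in clones, against -1.50, -2.23 and -1.70 in IVF embryos. The clone of replicate 4 lay among the IVF embryos and the other 4 below them. The difference of -1.16 ± 0.45 did not pass (adjusted p = 0.151), and without that clone it was -1.46 ± 0.25 and passed (adjusted p = 0.0398). At the blastocyst Lamb1 had 0.11, 2.01, 2.63, 1.75 and 2.37 in clones, against 0.47, 0.03 and 0.56 in IVF embryos. Of the clones 4 lay above all IVF embryos and replicate 1 did not (1.42 ± 0.57, adjusted p = 0.229).

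Of the 3 further probe sets of Lamb1, one followed the main set with a correlation of 0.980 over the 51 arrays. Another fell later: it read 4.64, 4.49 and 3.89 in IVF 1-cell embryos and -0.03 to 0.45 at the 2-cell stage. The last varied little (SD 0.109) and did not follow the main set.

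Lamc1 (chr1:153218922-153332786, the γ1 chain) had 5.79, 5.57 and 5.77 in MII oocytes. In IVF 1-cell embryos it fell by 5.75 ± 0.47 relative to the oocytes (adjusted p = 1.27e-07). At the 1-cell stage it had 2.75, 2.79, 2.25, 3.01 and 2.90 in clones, against 0.00, -0.87 and 0.77 in IVF embryos. All clones lay above all IVF embryos, and clones were higher by 2.77 ± 0.37 (adjusted p = 0.0108, and 0.000125 to 0.695 over the alternatives tried). In IVF 4-cell embryos the values ran from -1.57 to -1.34. The IVF 1-cell values are not shown to be above background, so no fold is given. Lamc1 was the only one of the 8 genes to pass at the 1-cell stage, where 6.31% of all genes passed. The second probe set of Lamc1 differed by 0.30 at this stage and did not pass (adjusted p = 0.695), so the call rests on 1 probe set. The hybridisation controls of these clones lay between -1.02 and 0.50, against 0.53 to 0.79 in IVF embryos. Clone replicates 4 and 5 had controls of 0.35 and 0.50, and every clone lay below every IVF embryo in them. The controls and the kind of embryo thus cannot be fully told apart at this stage. With the controls as a covariate the difference was 3.12 (adjusted p = 0.0467). The 11 oocyte markers averaged 5.15 to 5.69 in 1-cell clones and 4.91 to 5.36 in IVF embryos, and 3 were higher in clones and 1 lower. The part of the controls and of these markers in the Lamc1 result was not tested.

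From the 1-cell to the 2-cell stage Lamc1 fell by 3.43 ± 0.47 in clones (adjusted p = 8.69e-07), and its IVF step was -0.43 ± 0.47 (adjusted p = 0.622). The difference between these steps was -3.00 ± 0.72 (adjusted p = 0.00338). It did not pass after quantile normalization (-1.62, adjusted p = 0.408) or with the hybridisation controls as a covariate (-2.40, adjusted p = 0.232). At the morula the order was turned: Lamc1 had -0.83, 1.17, -1.35, 1.87 and -0.78 in clones, against 1.95, 2.35 and 3.04 in IVF embryos. All clones were below all IVF embryos, and the clones spread over more than 3 units (-2.43 ± 0.83, adjusted p = 0.365). The step from the 8-cell stage to the morula was 1.08 ± 0.47 in clones (adjusted p = 0.127) and 3.50 ± 0.47 in IVF embryos (adjusted p = 7.93e-05), with a difference of -2.42 ± 0.72 (adjusted p = 0.0368). That difference did not pass without any 1 of 9 arrays: clone 8-cell replicate 3 or 4, clone morula replicate 1, 3 or 5, IVF 8-cell replicate 1 or 3, or IVF morula replicate 2 or 3 (0.0504 to 0.115). From the morula to the blastocyst the clones rose by 4.66 ± 0.47 (adjusted p = 2.54e-08), more than the IVF step of 1.09 ± 0.47 by 3.57 ± 0.72 (adjusted p = 0.00238). At the blastocyst Lamc1 had 4.06, 4.49, 5.18, 4.55 and 5.10 in clones, against 3.15, 3.89 and 3.57 in IVF embryos. The groups did not overlap, and the difference of 1.14 ± 0.30 did not pass (adjusted p = 0.0795).

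None of these differences of steps passed with the second probe set of Lamc1, which gave -0.17, -0.06 and 0.48. That probe set rose at the blastocyst by 5.13 ± 0.31 in clones (adjusted p = 1.45e-12 over all probe sets) and by 4.65 ± 0.13 in IVF embryos (adjusted p = 2.19e-12). Before the blastocyst it stayed between -0.14 and 0.01 in IVF embryos from the 1-cell stage on. Both probe sets thus rose at the blastocyst in clones, and the second alone passed there in IVF embryos (main set 1.09, adjusted p = 0.0929).

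Lama1 (chr17:67697127-67822645, the α1 chain) lay within 0.06 of its baseline in every IVF embryo from the 2-cell stage to the morula. It rose at the blastocyst by 5.40 ± 0.62 in clones (adjusted p = 2.12e-07) and by 4.30 ± 0.22 in IVF embryos (adjusted p = 2.07e-09). Cloned blastocysts had 2.07, 5.33, 6.66, 6.44 and 6.94, against 4.70, 4.63 and 3.43 in IVF blastocysts. Of the clones 4 lay above all IVF embryos and replicate 1 lay below them all, and the difference of 1.23 ± 1.16 did not pass (adjusted p = 0.658). At the 1-cell stage Lama1 stood at 2.26 and 2.58 in the clones of replicates 1 and 3, and between -0.04 and 0.06 in the other clones.

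Nid1 encodes nidogen-1, which binds both laminin γ1 and type IV collagen. Nid1 (chr13:13437602-13512275) was low up to the 2-cell stage. From the 2-cell to the 4-cell stage it rose by 4.40 ± 0.38 in clones (adjusted p = 1.05e-09) and by 5.29 ± 0.45 in IVF embryos (adjusted p = 1.16e-06). It had -5.39, -4.41, -5.08, -3.30 and -4.86 in 2-cell clones, against -6.13, -6.44 and -6.05 in IVF embryos. Clones lay above IVF embryos without overlap at the 2-cell stage, but the difference of 1.60 ± 0.47 did not pass (adjusted p = 0.163). Clones rose from the 1-cell to the 2-cell stage by 1.74 ± 0.38 (adjusted p = 0.000406), a call whose sign turned after quantile normalization (-0.997, adjusted p = 0.101) and that was 0.04 with the second probe set. At the morula Nid1 had 1.77, 2.54, 2.05, 2.22 and 1.43 in clones, against 0.63, 0.47 and 0.74 in IVF embryos. The groups again did not overlap (1.39 ± 0.24, adjusted p = 0.0978). In clones it rose by 1.67 ± 0.38 at the morula (adjusted p = 0.00274, and 0.00245 without the 8-cell clone of replicate 4) and fell by 1.38 ± 0.38 at the blastocyst (adjusted p = 0.00677), which the second probe set did not do at a passing size (1.78, adjusted p = 0.0724, and -0.34, adjusted p = 0.73). A second probe set shared the rise at the 4-cell stage, by 2.13 ± 0.66 in clones and 2.17 ± 0.49 in IVF embryos (adjusted p = 0.0192 and 0.00557). In IVF embryos it fell by 1.61 ± 0.49 at the morula (adjusted p = 0.0454) and rose by 2.93 ± 0.49 at the blastocyst (adjusted p = 0.000629). It then averaged 1.80 in cloned and 2.55 in IVF blastocysts, a difference of -0.75 ± 0.39 that did not pass (adjusted p = 0.444). A further one did not follow the main set, with a correlation of 0.07.

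Sparc encodes osteonectin, a secreted calcium- and collagen-binding glycoprotein that is abundant in parietal endoderm. Its upstream region is shown because Sparc is the gene whose blastocyst value differed between the kinds of embryo. The stretch is the 250 bases before the gene on the minus strand (RefSeq, GRCm38.p6, chr11:55420081-55420330), written 5′ to 3′ with no base in capitals because none of the 4 motifs searched occurs in it.
Sparc upstream: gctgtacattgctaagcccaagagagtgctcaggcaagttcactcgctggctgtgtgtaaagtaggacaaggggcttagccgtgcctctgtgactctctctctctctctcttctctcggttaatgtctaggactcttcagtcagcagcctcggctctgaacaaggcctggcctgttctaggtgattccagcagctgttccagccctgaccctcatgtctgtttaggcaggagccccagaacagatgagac

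RefSeq windows from 250 bases before to 50 after the start were on hand for 5 of the 8 genes (Col4a1, Col4a2, Sparc, Lamb1 and Nid1). The motifs searched on both strands were the GATA site AGATAA, the SOX core ACAAAG, the SP1 box GGGCGG and the CCAAT box CCAAT, which do not overlap one another. None of the 5 windows held AGATAA or ACAAAG, which occur in 11.2% and 18.7% of all 32851 windows. GGGCGG occurred in the windows of Col4a1 (1 match), Col4a2 (3), Lamb1 (2) and Nid1 (1), and in 35.7% of all windows. The windows of Col4a1 and Col4a2 share 78 bases, so the match of Col4a1, in the 22 bases shown above, is also counted for Col4a2. CCAAT occurred once in each of these 4 windows and in 37.4% of all. Sparc held neither.

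Sparc (chr11:55394159-55420080) rose at the blastocyst in both kinds of embryo and stood higher in clones. It had 5.64, 6.35, 7.09, 6.84 and 6.88 in cloned blastocysts, against 4.81, 3.91 and 3.45 in IVF blastocysts. Every clone lay above every IVF embryo. Clones were higher by 2.50 ± 0.43, or 5.66-fold (adjusted p = 0.0236, and 0.00105 to 0.409 over the alternatives tried). It did not pass without IVF replicate 2 or 3 or clone replicate 2, 4 or 5 (0.0508 to 0.073). It was the only one of the 8 genes to pass at the blastocyst, where 6.18% of all genes passed. A second probe set read 5.10, 5.54, 6.20, 6.49 and 6.05 in clones, against 4.26, 3.40 and 3.33 in IVF embryos, and passed too (2.21 ± 0.37, adjusted p = 0.0307 over all probe sets).

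The rise of Sparc from the morula to the blastocyst was 5.52 ± 0.49 in clones (adjusted p = 2.53e-09) and 4.25 ± 0.35 in IVF embryos (adjusted p = 4.1e-07). The difference between the steps of 1.27 ± 0.70 did not pass for the main probe set (adjusted p = 0.617), and passed for the second at 1.79 ± 0.36 (adjusted p = 0.00303 over all probe sets). Some clones had a Sparc value above baseline at earlier stages. Cloned morulae had 0.00, 1.04, 2.40, 1.93 and -0.16, against 0.07, -0.26 and -0.38 in IVF morulae. Clones of replicates 2, 3 and 4 lay above the IVF embryos and the other 2 among them (1.23 ± 0.65, adjusted p = 0.659). A further probe set of Sparc stayed near its baseline at the blastocyst and did not follow the main one (correlation -0.18).

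A measure of RNA quality moved with the kind of embryo at the blastocyst. The 3′ minus 5′ difference of the control probe sets lay between -1.52 and -0.72 in clones and between -2.36 and -1.63 in IVF embryos (two-sided exact permutation test, p = 0.0357, the smallest possible here, and 0.0857 adjusted over 12 tests). With it as a covariate the Sparc difference was 1.64 and did not pass (adjusted p = 0.409). With the hybridisation controls as a covariate it was 2.88 (adjusted p = 0.0542).

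Cloned blastocysts of replicates 1 and 3 marked the ends of the group. Replicate 1 was the lowest of the 5 clones in 6 of the 8 genes, namely both collagen chains, all 3 laminin chains and Sparc. Replicate 3 was the highest in 5 genes, the collagen chains, Lamb1, Lamc1 and Sparc. The mean of 15 primitive and parietal endoderm genes ran from 1.61 to 2.91 over the cloned blastocysts, and from 1.73 to 2.18 over the IVF blastocysts.

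Cthrc1 (chr15:39076932-39087121) was high from the 4-cell stage to the morula in IVF embryos and near baseline in most clones. In clones none of the 3 steps tested passed. In IVF embryos it rose by 4.30 ± 0.71 from the 2-cell to the 4-cell stage (adjusted p = 0.000348), was highest at the 8-cell stage, and fell to a mean of 0.16 in blastocysts, against 6.15 in morulae (standard error of the difference 0.71, adjusted p = 2e-05). At the 4-cell stage it had -0.19, -0.19, 4.10, 0.02 and -0.09 in clones, against 5.08, 5.09 and 5.30 in IVF embryos. Every clone lay below every IVF embryo, with replicate 3 far above the other clones. The difference of -4.43 ± 1.06 did not pass (adjusted p = 0.101). Without that clone it was -5.27. That clone is singled out by its own Cthrc1 value, so no p-value is given without it.

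At the 8-cell stage Cthrc1 had 0.38, 0.01, -0.16, 5.02 and 0.03 in clones, against 8.01, 7.63 and 7.77 in IVF embryos. The high clone was that of replicate 4, the array that stood apart, and even it lay below every IVF embryo. The difference was -6.74 ± 1.26, and -7.73 without that clone. At the morula Cthrc1 had 0.25, 1.33, -0.04, -0.01 and 0.00 in clones, against 6.50, 4.99 and 6.98 in IVF embryos. The groups did not overlap, and clones were lower, with a log2 difference of -5.85 ± 0.53 (adjusted p = 0.0226, and 4.82e-06 to 0.362 over the alternatives tried). It did not pass without clone replicate 1, 3 or 5 (0.0619 to 0.0804), nor with the hybridisation controls (0.123) or the 3′ minus 5′ difference (0.0637) as a covariate. At the blastocyst both kinds of embryo were at baseline, with -0.07 to 0.04 in clones and -0.09 to 0.60 in IVF embryos. The steps from the morula to the blastocyst differed by 5.66 ± 1.13 (adjusted p = 0.00229).

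**Figure D2:**
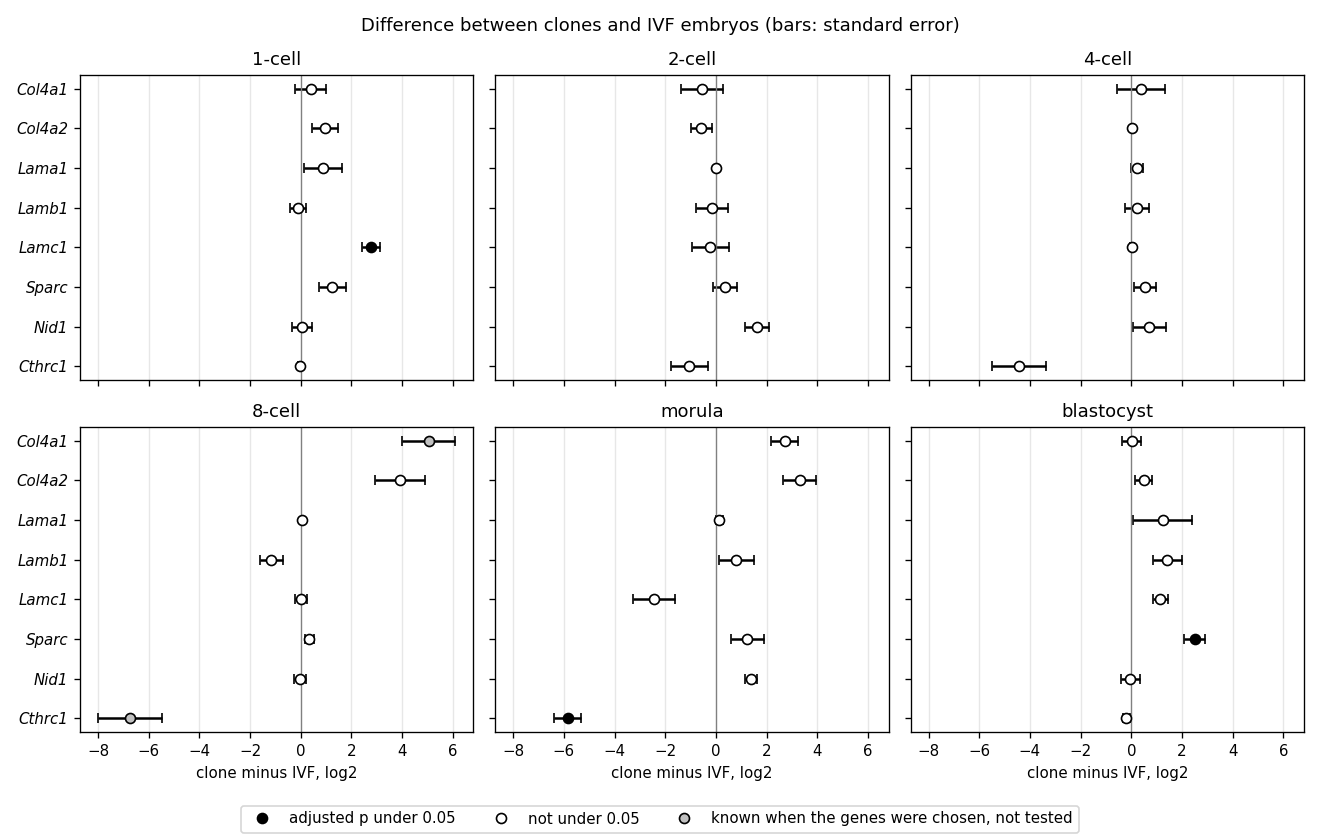
Difference between clones and IVF embryos in log2 units (horizontal axis; points are estimates, bars the standard error) for each gene and stage, with black points where the adjusted p was under 0.05 and grey points where the difference was known when the genes were chosen and was not tested. The black points are Lamc1 at the 1-cell stage, Cthrc1 at the morula and Sparc at the blastocyst, and the grey points are Col4a1 and Cthrc1 at the 8-cell stage.

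Over the 6 stages, 3 of the 46 pairs of gene and stage that were tested passed between clones and IVF embryos. At the 2-cell and 4-cell stages 0 of 8 genes passed by limma, where 2.37% and 2.26% of all genes did, and 1 gene at each stage had an unadjusted p under 0.05. At the 8-cell stage 0 of the 6 genes tested passed by limma, where 6.62% of all genes did, and 3 had an unadjusted p under 0.05. At the morula 1 of 8 passed, where 0.165% of all genes (30 genes) did. The median difference of the 8 genes was 0.64, -0.19, 0.22, 0.03, 1.02 and 0.81 from the 1-cell stage to the blastocyst. Over all genes it lay between -0.01 and 0.04 at each stage. The steps of clones and IVF embryos differed for Lamc1 from the 1-cell to the 2-cell stage (1 of 8 genes and 11.2% of all). No gene passed from the 2-cell to the 4-cell stage (2.64% of all). Col4a2 passed from the 4-cell to the 8-cell stage (1 of 6 tested and 1.31% of all), Lamc1 from the 8-cell stage to the morula (1 of 6 tested and 5.66%), and Lamc1 and Cthrc1 from the morula to the blastocyst (2 of 8 and 1.62%).

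Along development many genes changed, and the counts for these 8 are to be read against that. In clones 5 of 8 passed to the 2-cell stage (41.3% of all genes), 1 to the 4-cell stage (29.9%), 1 of 6 tested to the 8-cell stage (6.5%), 3 of 6 tested to the morula (17.4%) and 4 of 8 to the blastocyst (34.5%). The 3 at the morula were Lamb1, Nid1 and Col4a2, the last with 2.60 ± 0.53 (adjusted p = 0.000943, and 0.00329 without the 8-cell clone of replicate 4). In IVF embryos 2 of 8 passed from the MII oocyte to the 1-cell stage (30.6%), 1 to the 2-cell stage (35.9%) and 3 to the 4-cell stage (23.8%). A further 1 of 6 tested passed to the 8-cell stage (1.98%), 3 of 6 tested to the morula (17.2%) and 4 of 8 to the blastocyst (22.6%). The 4 at the blastocyst were Lama1, Sparc, Cthrc1 and Col4a2, the last with 1.79 ± 0.58 (adjusted p = 0.0369). That call of Col4a2 did not pass without IVF morula replicate 3 or any 1 of the IVF blastocysts (0.0753 to 0.168), nor after quantile normalization (adjusted p = 0.233), with the hybridisation controls (0.788) or the 3′ minus 5′ difference (0.279) as a covariate, or in 1 fit of all 51 arrays (0.0502).

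Over the whole course, 6 of 8 genes were higher in the cloned blastocyst than in the cloned 1-cell embryo. Of all 18193 genes 62.3% passed there in either direction, 4867 higher and 6461 lower. Between the IVF blastocyst and the MII oocyte 4 of 8 were higher and 2 lower. Of all genes 65% passed in that comparison, 4718 higher and 7104 lower. Among the main probe sets Nid1 had the largest net rise, with 6.97 ± 0.38 in clones and 7.12 ± 0.45 in IVF embryos (adjusted p = 9.69e-15 and 1.72e-09). Sparc gained 5.62 ± 0.49 in clones and 3.88 ± 0.35 in IVF embryos (adjusted p = 1.55e-10 and 9.01e-08). That order held for the main probe sets only: in clones the second ones gained 4.65 ± 0.66 for Nid1, 4.99 ± 0.31 for Lamc1, 5.43 ± 0.53 for Col4a1 and 5.84 ± 0.24 for Sparc. The 2 genes lower in the IVF blastocyst than in the oocyte were Lamb1 (-4.92 ± 0.34, adjusted p = 4.19e-09) and Lamc1 (-2.18 ± 0.47, adjusted p = 0.000832). For Lamc1 the second probe set gave the opposite sign (2.38, adjusted p = 6.23e-10), and quantile normalization gave -0.04.

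**Figure D3:**
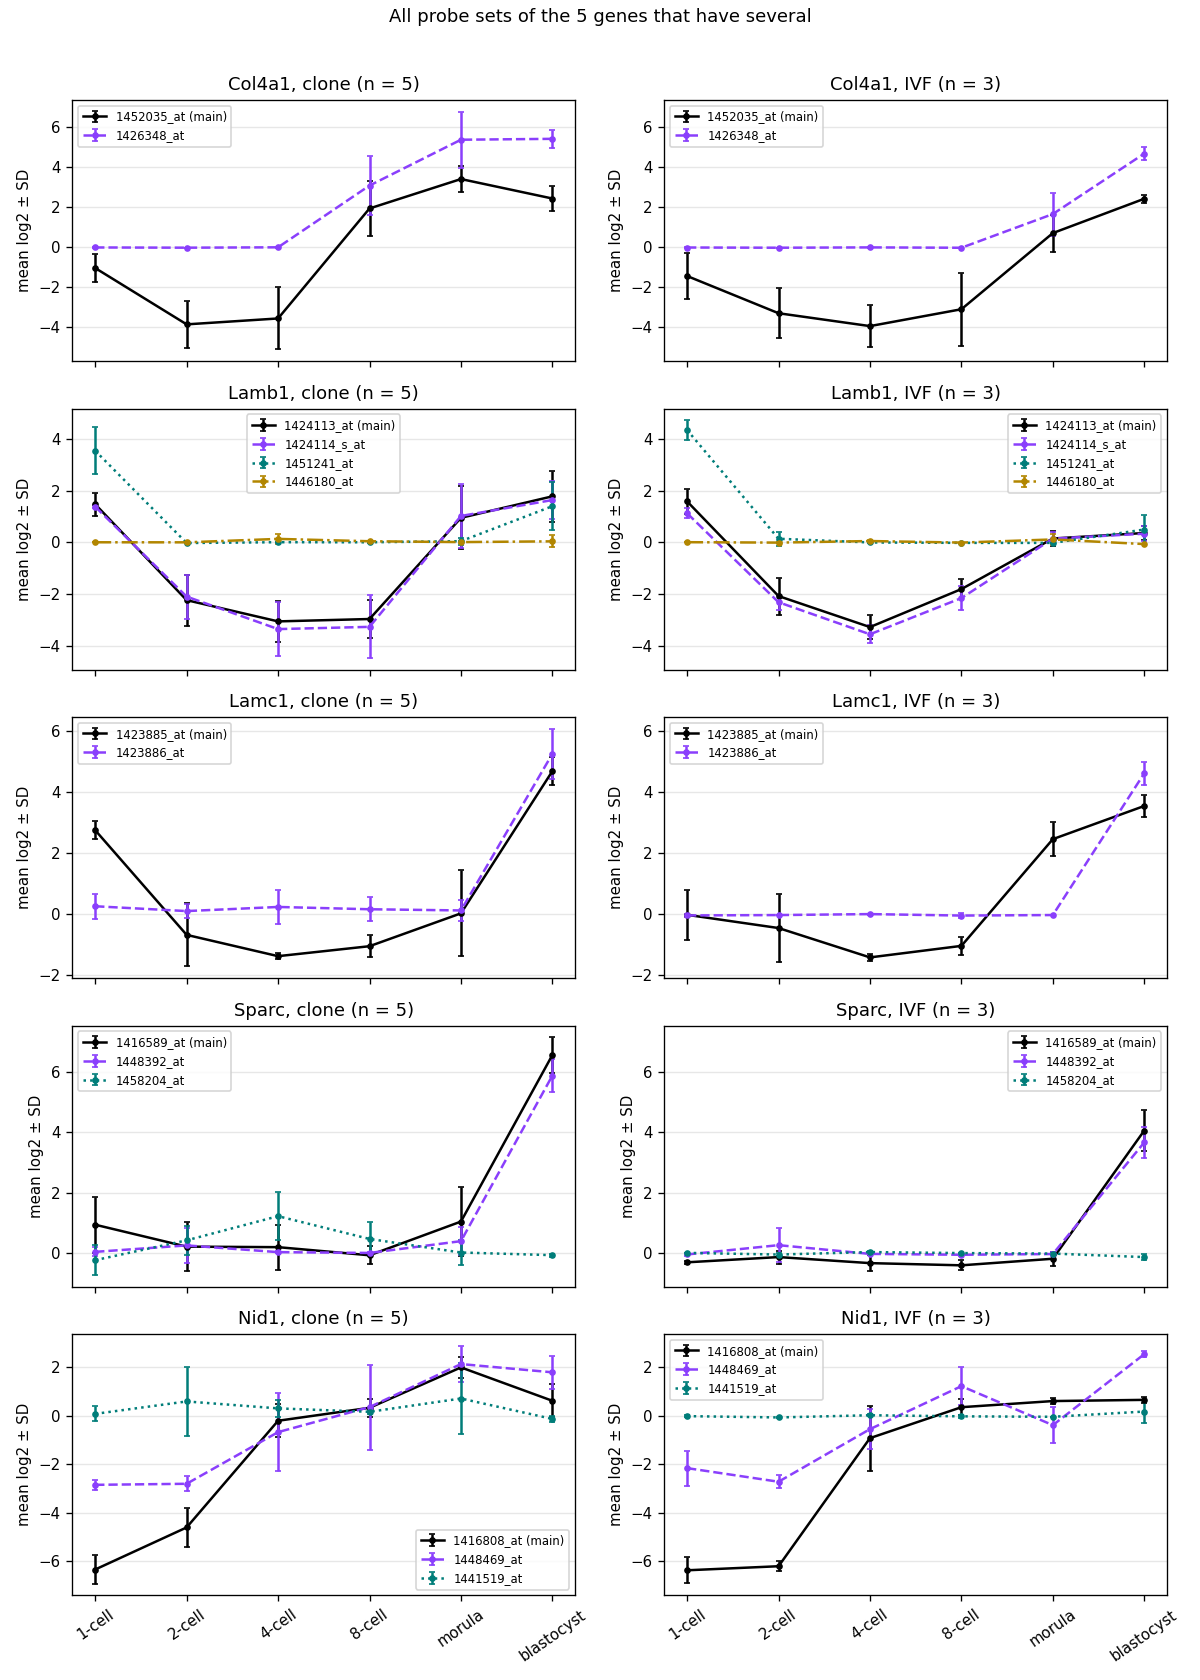
Mean log2 value ± SD by stage for every probe set of the 5 genes that have several, in clones (left, n = 5) and IVF embryos (right, n = 3). The probe sets of Sparc with the largest and second largest SD rise together at the blastocyst, while those of Lamc1 part at the 1-cell stage and in the IVF morula.

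The main probe set was in each case chosen over a next one of smaller SD. That SD was 2.87 against 2.38 for Col4a1, 2.48 against 2.36 for Lamb1, 2.46 against 1.86 for Lamc1, 2.19 against 1.90 for Sparc and 3.26 against 2.11 for Nid1. Col4a2, Lama1 and Cthrc1 had 1 probe set each.

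Markers of other cells were followed beside these genes. The mean of 18 Sertoli cell markers lay between 0.36 and 1.25 in 8-cell clones and between 0.35 and 0.92 in 8-cell IVF embryos. At the morula it lay between 0.50 and 0.88 in clones and between -0.03 and 0.02 in IVF embryos. This morula mean includes Rhox5, which differed by 8.07 there, and no mean without Rhox5 was taken. At the blastocyst the mean of the 18 lay between 0.38 and 0.61 in clones and between -0.09 and 0.20 in IVF embryos. Of the 18 markers 1 passed at each of these stages, 5.56% against 6.62%, 0.165% and 6.18% of all genes at the 8-cell stage, the morula and the blastocyst: the X-linked homeobox gene Rhox5 was 8.07 ± 0.38 higher in cloned morulae (adjusted p = 0.000823), Aard was 2.38 ± 0.43 higher in cloned blastocysts (adjusted p = 0.0276), and Tsx was lower in 8-cell clones (-1.55 ± 0.28, adjusted p = 0.0315, and 0.0586 when clone 4 was left out). Of 14 peritubular and fibroblast markers 0 passed at any stage by limma, and 0 to 2 had an unadjusted p under 0.05. Of 14 cumulus cell markers 1 passed, Fst in 8-cell clones (0.26 ± 0.05, adjusted p = 0.0358), at a stage where 6.62% of all genes passed. Of the 11 oocyte markers, Zp1, Oosp1 and Mos were higher and Nobox lower in 1-cell clones, where 6.31% of all genes passed. Padi6 was lower in 4-cell clones (-1.52 ± 0.23, adjusted p = 0.0247), where 2.26% of all genes passed. Of the 11 blastocyst markers, Atp1b1 was higher in 2-cell clones (2.37 ± 0.40, adjusted p = 0.0378) and Sox2 lower in 8-cell clones (-1.33 ± 0.17, adjusted p = 0.0106). Dsp (0.56 ± 0.10, adjusted p = 0.0271) and Gata6 were higher in cloned blastocysts. The shares of all genes that passed were 2.37% at the 2-cell stage, 6.62% at the 8-cell stage and 6.18% at the blastocyst. Centred values have no true zero, so which markers are absent cannot be read from them. The part of other cells in these results was not tested.

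Other genes of the pathway were read from lists that leave out the 8, and the share of all genes that passed at the stage is given beside the genes that passed. Of the 12 pathway and marker genes that passed at the 8-cell stage, 8 still did without the clone of replicate 4, and all 12 kept their direction, where 4.82% of all genes passed. Of 29 other basement membrane genes, 2 passed at the 1-cell stage (6.9%, against 6.31% of all genes), the fibronectin gene Fn1 (-0.85 ± 0.10, adjusted p = 0.0079) and the laminin α2 gene Lama2 (3.15 ± 0.63, adjusted p = 0.0359). At the blastocyst 1 of the 29 passed (3.45%, against 6.18% of all genes), the agrin gene Agrn (0.66 ± 0.13, adjusted p = 0.0362), and at the other 4 stages 0 of 29 passed by limma (0 to 7 with an unadjusted p under 0.05). The medians of their differences lay between -0.01 and 0.13 at the 6 stages, against -0.01 to 0.04 over all genes.

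Among 25 genes of collagen modification, folding and export, 3 passed at the blastocyst (12%, against 6.18% of all genes). Plod2, a lysyl hydroxylase of collagen, was higher in clones by 3.39 ± 0.66 (adjusted p = 0.0346), Sec23a, a coat protein of vesicles that leave the endoplasmic reticulum, by 0.57 ± 0.12 (adjusted p = 0.0393), and the chaperone gene Hsp90b1 was lower (-0.94 ± 0.10, adjusted p = 0.00779). At the 1-cell stage 2 of 25 passed (8%, against 6.31% of all genes), both higher in clones: Pxdn, the peroxidase that crosslinks type IV collagen, by 4.28 ± 0.39 (adjusted p = 0.00372) and Sec23a by 1.74 ± 0.26 (adjusted p = 0.015). At the 2-cell stage 1 of 25 passed (4%, against 2.37%): P4hb, a subunit of prolyl 4-hydroxylase, was lower in clones (-0.99 ± 0.16, adjusted p = 0.0348). The vesicle coat gene Sec24d was lower in 8-cell clones (-1.67 ± 0.33, adjusted p = 0.0374, and 0.0673 when clone 4 was left out). It was the only one of 25 at that stage (4%, against 6.62% of all genes).

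Of 25 matrix receptors and adhesion adaptors, 3 passed at the blastocyst, all higher in clones (12%, against 6.18% of all genes). They were the adaptor genes Parva (3.31 ± 0.48, adjusted p = 0.0153) and Vcl (1.55 ± 0.18, adjusted p = 0.0084) and the integrin β1 gene Itgb1 (0.84 ± 0.16, adjusted p = 0.0306). The dystroglycan gene Dag1, which encodes a laminin receptor, was 3.36 ± 0.35 higher in 1-cell clones (adjusted p = 0.00566). The collagen receptor gene Ddr2 was lower in 2-cell clones (-3.27 ± 0.43, adjusted p = 0.0205) and the integrin-linked kinase gene Ilk in 8-cell clones (-3.78 ± 0.62, adjusted p = 0.0231, and 0.0449 when clone 4 was left out). Each was the only one of the 25 at its stage (4%, against 6.31%, 2.37% and 6.62% of all genes). Of 18 matrix proteases and inhibitors, 3 passed at the blastocyst (16.7%, against 6.18% of all genes). Timp3, an inhibitor of matrix metalloproteases, was 4.17 ± 0.41 higher in cloned blastocysts (adjusted p = 0.00587) and Htra1 2.61 ± 0.34 higher (adjusted p = 0.012), while Adam17 was lower (-1.10 ± 0.15, adjusted p = 0.0122). Htra1 went the other way in 1-cell clones, where it was lower (-1.07 ± 0.19, adjusted p = 0.0254). Adam10 was lower in 8-cell clones (-2.81 ± 0.51, adjusted p = 0.0309, and 0.0582 when clone 4 was left out). Each was 1 of 18 at its stage (5.56%, against 6.31% and 6.62% of all genes).

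Primitive and parietal endoderm is the lineage that later deposits most of these proteins. Of its 15 listed genes, Gata6 was higher in cloned blastocysts by 0.73 ± 0.14 (adjusted p = 0.0303) and Lrp2 lower (-1.42 ± 0.18, adjusted p = 0.0108), which is 13.3% of the list against 6.18% of all genes. Srgn was 0.53 ± 0.11 higher in 1-cell clones (adjusted p = 0.0438), the only one of the 15 at that stage, where 6.31% of all genes passed. At the 8-cell stage, Gata4 was lower in clones (-4.27 ± 0.53, adjusted p = 0.00997), as was Amn (-4.01 ± 0.56, adjusted p = 0.015), and Fst was higher by 0.26 ± 0.05 (adjusted p = 0.0358). These 3 make 20% of the list, against 6.62% of all genes, and all 3 passed without the clone of replicate 4 (5.87e-06 to 0.0237). The list averaged -0.46 to 0.33 in 8-cell clones, against 0.28 to 0.57 in 8-cell IVF embryos. Of 13 trophectoderm genes 1 passed, at the 8-cell stage, where 6.62% of all genes did. It was Hand1, lower in clones (-4.94 ± 0.46, adjusted p = 0.0041, and 0.012 when clone 4 was left out).

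**Figure D4:**
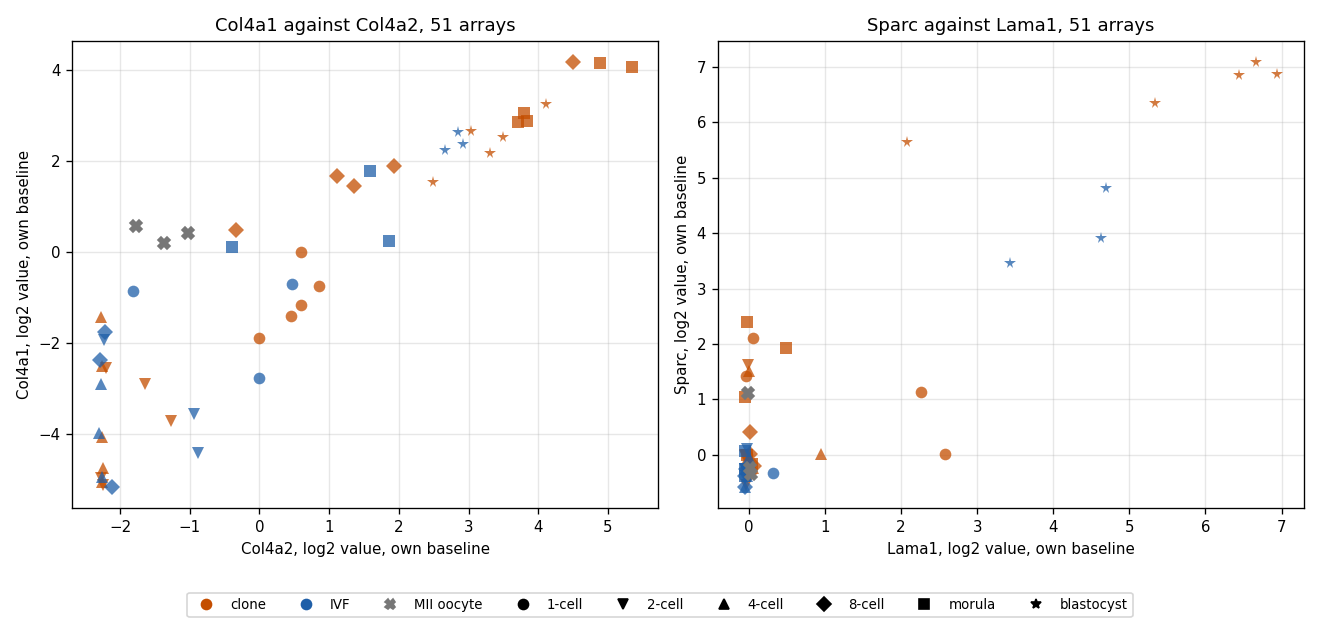
Log2 values of Col4a1 against Col4a2 (left) and of Sparc against Lama1 (right) in the 51 single oocytes and embryos, with colour for the kind of embryo and shape for the stage. The collagen pair has a correlation of 0.889, and on the right the blastocysts stand away from all earlier embryos.

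The 8 genes fell into a few shapes over the 13 groups. Across the 51 arrays, Lama1 and Sparc correlated at 0.896 and Lamb1 and Lamc1 at 0.792, and Cthrc1 was negatively correlated with 6 of the other 7 genes (-0.33 to -0.17), the exception being Nid1 (0.279). These values describe shared stages and are given with no p-value. Within groups the largest pairwise correlation was the 0.373 of Col4a1 with Col4a2. The genes outside the 8 most like each in shape over the 13 group means were Phlda1 for Col4a1 (Pearson r = 0.955), Farsb for Col4a2 (0.932), Fxyd6 for Lama1 (0.992), Sdhaf4 for Lamb1 (0.959), 1110019D14Rik for Lamc1 (0.973), Cers3 for Sparc (0.985), Snx5 for Nid1 (0.989) and Esam for Cthrc1 (0.984). The gene Cat was among the 3 most alike for both collagen chains, at 0.934 and 0.926.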

How the data were processed

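Single oocytes and embryos were measured on Affymetrix mouse arrays after 2 rounds of cRNA amplification, per the labels' protocols. The authors made the deposited log2 values with RMA, per the submitters' processing notes, with no version given. The base of the logarithm was taken from the values, which span 13.8 units in 1 probe set. The values were found to be centred per probe set, since 94.3% of probe sets had exactly 1 array at 0. No absolute level or detection call was used, and arrays have no read depth, so their number limits the precision. Gene symbols came from the platform annotation (34945 probe sets with 1 symbol, 932 with several and 9160 with none, and 64 controls left out), and positions and promoter windows from RefSeq (GRCm38.p6).

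The most variable probe set of each gene (18193 genes, by SD) entered lmFit and eBayes of limma 3.58.1, run in R 4.3.3, with no filter. Clones and IVF embryos were compared at each stage in its 8 arrays, steps in the 21 oocyte and IVF or 30 clone arrays, and differences of steps in all 51. P-values had Benjamini-Hochberg adjustment, with a threshold of 0.05. Each fit took 1 variance per gene over all its groups. The fit was tested on simulated data with normal noise of 1 SD per gene in all groups. That test does not cover genes whose spread differs between stages, as it does for Col4a2. All 8 genes are named in every comparison, up to 3 called genes per list and stage with the smallest adjusted p, and the most alike genes by Pearson correlation over group means. The genes and lists were chosen with earlier results of these data known. The 8-cell differences of Col4a1 and Cthrc1 were among them, so comparisons of these 2 genes that use the 8-cell stage were left untested and out of every count of calls, which departs from the planned counts. Alternatives were quantile normalization, median centring, all probe sets, the second probe set, a filter on the lowest 30% by SD, array weights, 2 quality covariates, a replicate block, 1 fit of all arrays and leaving out each replicate. The refit of the pathway and marker genes without the 8-cell clone of replicate 4 was chosen after seeing the data. The labels do not say what same-numbered embryos share. Their residuals correlated between -0.204 and 0.102 over all genes, and the main fits did not treat them as pairs.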

Additional observations from a re-analysis of the deposited data

Results flagged for a closer look

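Each gene at each stage gave 1 set of 5 clone values, 48 sets in all. In 12 of these, 1 embryo lay far from the others by Dixon's test, where chance gives about 1 in 20 per set. Sets of different genes at a stage share the same 5 clones and are not independent. The count of 12 is therefore a description and was not tested against chance. Several of the 12 sets vary by less than 1 unit otherwise, so a modest value stands out in them. For Cthrc1, replicate 3 had 4.10 at the 4-cell stage against -0.19 to 0.02 in the other clones, replicate 4 had 5.02 at the 8-cell stage against -0.16 to 0.38, and replicate 2 had 1.33 at the morula against -0.04 to 0.25. At the 2-cell stage Cthrc1 replicate 2 had -0.002 against -0.28 to -0.21. For Sparc, replicate 5 had 1.62 at the 2-cell stage against -0.54 to -0.002, and replicate 3 had 1.52 at the 4-cell stage against -0.24 to 0.01. That 4-cell clone was thus the same embryo for Sparc and Cthrc1. For Lamc1, replicate 4 had 1.12 at the 2-cell stage against -1.36 to -0.84, and replicate 5 had -1.56 at the 4-cell stage against -1.36 to -1.34. For Lama1, replicate 2 had 0.95 at the 4-cell stage against -0.03 to 0.06, and replicate 4 had 0.48 at the morula against -0.05 to 0.04. For Nid1, replicate 1 had -1.38 at the 4-cell stage against -0.13 to 0.27, and replicate 4 had -0.54 at the blastocyst against 0.72 to 1.16.

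A step differed between clones and IVF embryos, by the interaction test, for Lamc1 from the 1-cell to the 2-cell stage (-3.00), from the 8-cell stage to the morula (-2.42) and from the morula to the blastocyst (3.57). It differed for Col4a2 (3.90) from the 4-cell to the 8-cell stage, and for Cthrc1 from the morula to the blastocyst (5.66).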

How the results depend on the processing

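Of the 48 pairs of gene and comparison that passed, 447 values under the alternatives other than leaving out a replicate kept direction and call in 414 cases, and 1299 values without 1 replicate did so in 1262. The 1299 include replicates of groups outside the comparison, which entered the same fit. Leaving out such a replicate changes the standard error but not the difference, so its direction was fixed in advance. The count of 1262 is therefore no measure of stability. The sign turned in 2 of all these values: Nid1 from the 1-cell to the 2-cell clone after quantile normalization (-0.997) and Lamc1 from the oocyte to the IVF blastocyst with its second probe set (2.38). The cause was not tested. The 3 clone against IVF calls became 5 with array weights, 1 with hybridisation controls as covariate, 1 with the 3′ minus 5′ covariate, and 9 in 1 fit of all 51 arrays. The 14 clone steps became 9 with the second probe set. No share of all genes was taken under these alternatives. With a replicate block 0 of the 46 pairs of gene and stage passed by limma (13 had an unadjusted p under 0.05), and 5 differences of steps passed. Same-numbered residuals correlated between -0.204 and 0.102 over all genes. This cannot exclude a donor or culture shared by same-numbered embryos, which the labels do not give. Without 1 replicate each, these counts ran from 2 to 4 for clones against IVF embryos, 12 to 16 (14 with all arrays) for IVF steps, 14 to 15 (14) for clone steps, 4 to 6 (5) for differences of steps and 12 to 13 (12) for net changes. Sparc at the blastocyst did not pass without IVF replicate 2 or 3 or clone replicate 2, 4 or 5 (0.0508 to 0.073), and Cthrc1 at the morula not without clone replicate 1, 3 or 5 (0.0619 to 0.0804). Each stage has 3 IVF embryos, and no detection call shows which low values lie above background.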
